A study of Mus musculus with 6 samples.

Results

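Entry into the cell cycle from G1 is controlled by D cyclins, the kinases Cdk4 and Cdk6 that they activate, and the inhibitor proteins that hold these kinases in check. The genes described here are Cdkn2c, the proposed candidate gene of the lupus susceptibility interval Sle2 on chromosome 4, the inhibitor genes Cdkn2d, Cdkn2a, Cdkn1a and Cdkn1b, the D cyclin genes Ccnd1, Ccnd2 and Ccnd3, and the kinase genes Cdk4 and Cdk6. They were chosen by symbol, and all 10 were found among the 33300 features of the expression table.

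RNA came from naive CD4 T cells of age-matched female mice, of an age the labels do not give, that were activated through CD3 and CD28 for 5 days under conditions that drive Th17 differentiation, towards helper T cells that make interleukin-17. Every culture held TGF-β1 (1 ng/mL), IL-6 (50 ng/mL), IL-1β (10 ng/mL), IL-23 (10 ng/mL) and antibodies against IL-4 and interferon-γ (10 µg/mL each). The control group had 3 mice of genotype WT, whose strain the labels do not name, and the other group had 3 mice of genotype SLE1.2.3. That is the usual name of a congenic line carrying the lupus intervals Sle1, Sle2 and Sle3, so any difference may come from any gene of these intervals, and the labels do not say whether animals were pooled.

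As background, a D cyclin bound to Cdk4 or Cdk6 phosphorylates the retinoblastoma protein and its relatives, which then release E2F factors to switch on genes of DNA replication. The INK4 proteins, encoded by Cdkn2a, Cdkn2b, Cdkn2c and Cdkn2d, bind Cdk4 and Cdk6 and keep D cyclins away from them. The CIP/KIP proteins p21 and p27, encoded by Cdkn1a and Cdkn1b, bind whole cyclin and kinase complexes and are best known as inhibitors of Cdk2. In T cells, activation raises D cyclins and lowers p27, and p18, the product of Cdkn2c, is known as a brake on division after antigen receptor signalling.

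Levels are in FPKM, the reads per kb of feature length per 1000000 assigned reads. The libraries held between 29.7 and 83.5 M assigned reads (M, 1000000), with control 3 the shallowest. A gene counted as tested where its mean over the 6 libraries was at least 1 FPKM, and as changed where limma gave an adjusted p of at most 0.05. The markers of other cells differed between the libraries. Cd4, the coreceptor that defines the starting cells, was at 246, 264 and 253 FPKM for control mice 1, 2 and 3 and at 257, 144 and 71.6 FPKM for SLE1.2.3 mice 1, 2 and 3. Of 6 γδ T cell markers 5 rose, and their summed level was 2.08 to 2.41 FPKM in the controls and 44.5 to 434 FPKM in the SLE1.2.3 libraries, with Trdv4 listed at 0 in 2 control libraries. All 6 were tested only through their SLE1.2.3 values, which fixes their direction, and so were 2 of the 4 CD8 T and NK cell markers and 1 of the 2 B cell markers in the counts that follow. Of 7 CD8 T and NK cell markers 4 were tested and 2 rose, with summed levels of 10.95 to 12.1 and 30.3 to 155 FPKM. Of 6 B cell markers 2 were tested and rose, with sums of 2.55 to 4.38 and 60.8 to 156 FPKM, while Ms4a1 was at most 0.043 FPKM in any library. Of 6 myeloid markers 3 were tested and 1, Cd68, fell, with sums of 8.29 to 9.65 and 3.11 to 12.1 FPKM. Of 8 αβ and CD4 T cell markers 0 passed, and of 6 Th17 markers 5 rose. SLE1.2.3 libraries 2 and 3 thus stood apart from library 1 in their CD4, CD8 and γδ RNA, and the calls below were also made without them. In such bulk samples a lower share of cells that express a gene and less RNA per cell cannot be told apart.

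Of the 10 genes, 9 were tested. Cdkn2c, Cdkn1a and Cdk4 fell and Cdkn2a rose in SLE1.2.3 cells, and 5 did not pass. Over all 11378 genes tested, 15.2% passed in the limma fit, 9.65% higher and 5.58% lower, so 63.4% of all calls were higher. That share was 74.3% after scaling each library to the same FPKM sum, which moved the median log2 change of all genes from 0.013 to 0.11, and 51.1% after quantile normalization. The FPKM sum includes the miRNA feature Gm23935, at 78767 FPKM in control library 3 and at 1923 to 3743 FPKM in the other libraries. The part of this feature in the results under a common FPKM sum was not tested. The 3 SLE1.2.3 values lay wholly below the controls for 4 of the 9 tested genes and wholly above them for 2. Among all tested genes the groups did not overlap for 41.5%, with 23.9% higher and 17.7% lower. The median log2 change of the 9 was -0.13. The fit without SLE1.2.3 mice 2 and 3 takes its spread from the controls. In it Cdkn2c, Cdkn1a, Cdk4 and Cdkn2a had log2 changes of -1.41, -0.66, -0.30 and 1.74. Without SLE1.2.3 mouse 2 alone 0 of the 9 rose and 1, Cdkn2c, fell, in a fit in which 1.81% of all tested genes passed. Leaving out control mouse 1, 2 or 3 left 2.75%, 2.26% and 2.39% of all tested genes past the threshold.

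**Figure D1:**
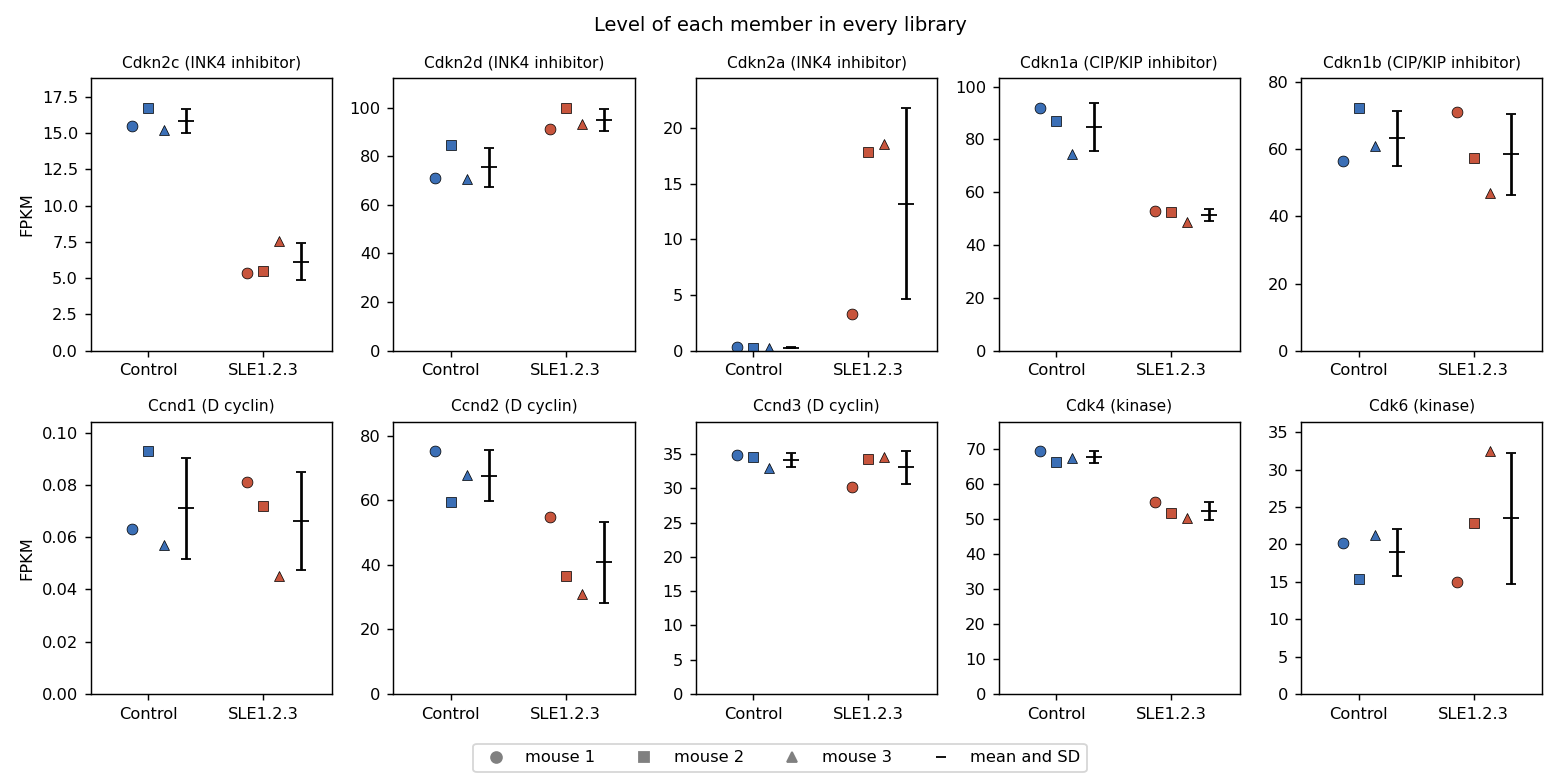
Level in FPKM of each of the 10 genes in the 3 control and 3 SLE1.2.3 libraries, with 1 symbol per mouse and bars for the mean and SD (n = 3 each); every axis starts at 0 and has its own scale. The SLE1.2.3 values of Cdkn2c lie between 5.33 and 7.59 FPKM, below all controls, and those of Cdkn2a between 3.28 and 18.5 FPKM, above all controls.

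**Figure D2:**
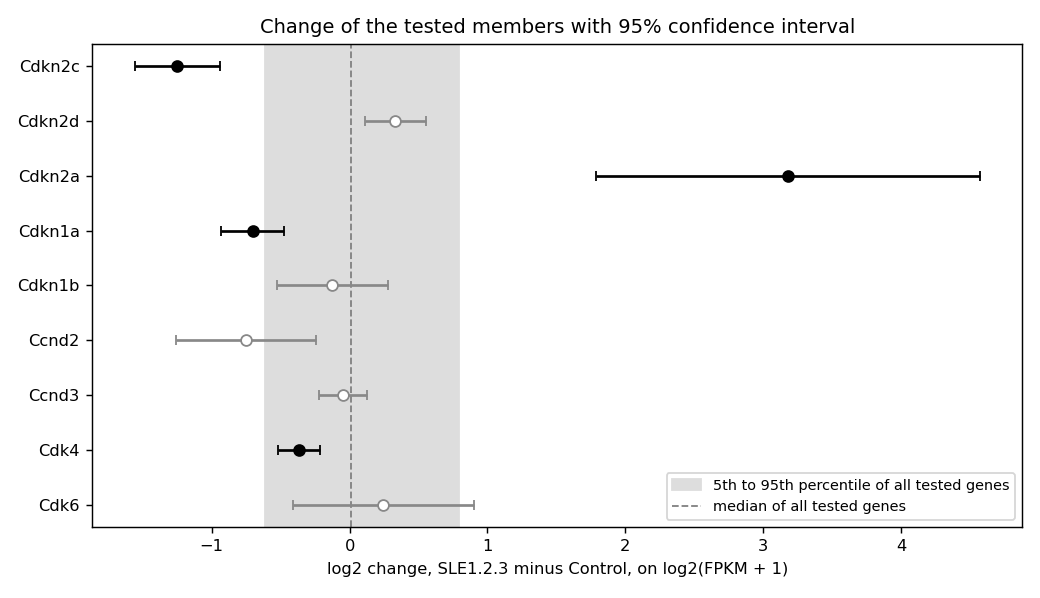
Log2 change with its 95% confidence interval from limma for the 9 tested genes, filled where the adjusted p was at most 0.05; the shaded band spans the 5th to the 95th percentile of all tested genes. Cdkn2c, at -1.25, and Cdkn2a, at 3.18, lie outside the band with their whole intervals.

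Cdkn2c encodes the INK4 inhibitor p18 (ENSMUSG00000028551.14; chromosome 4, 109660876 to 109667189, minus strand, mm10). It was at 15.5, 16.8 and 15.2 FPKM for control mice 1, 2 and 3 and at 5.33, 5.50 and 7.59 FPKM for SLE1.2.3 mice 1, 2 and 3. The groups were far apart, and the highest SLE1.2.3 level was in library 3. The mean was 15.8 ± 0.810 FPKM for the control and 6.14 ± 1.26 FPKM for the SLE1.2.3 group (SD, n = 3 each), so that SLE1.2.3 cells held 38.8% of the control level. The log2 change was -1.25 ± 0.13 (SE; 95% confidence interval -1.56 to -0.94; limma adjusted p = 0.00575). It had the smallest p-value of the 9, ranking 90th among all tested genes, and 129 of those genes had a more negative change. These levels rest on 911 to 2557 reads per library. Cdkn2c was the gene whose call held under all 19 alternatives, with adjusted p-values up to 0.0389. On dropping SLE1.2.3 mice 2 and 3, the log2 change was -1.41 (adjusted p = 0.00241, from 1 SLE1.2.3 library and the spread of the controls), and that library had the lowest summed γδ and CD8 marker levels of the SLE1.2.3 group.

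Cdkn2c has 2 transcripts annotated in GENCODE M21, with an outer and an inner start, and the table gives 1 value for both. The bases before the inner start are shown because this gene leads the comparison. The window before the outer start lies inside an annotated exon and is not printed. The sequence is from RefSeq (GRCm38.p6, the assembly known as mm10), which gave a start window for 8 of the 10 genes, without Ccnd1 and Ccnd2. It runs 5′ to 3′ on the minus strand, chr4:109665373-109665609. Each window printed here holds bases before a start that lie outside annotated exons. The letters are those of the reference assembly and were not compared with the DNA of either group of mice.
Cdkn2c, inner start: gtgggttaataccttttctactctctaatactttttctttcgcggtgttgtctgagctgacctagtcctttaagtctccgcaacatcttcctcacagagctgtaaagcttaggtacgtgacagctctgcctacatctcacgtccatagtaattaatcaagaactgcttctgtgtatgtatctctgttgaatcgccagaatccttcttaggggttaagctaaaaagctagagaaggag
These 237 bases were searched on both strands for 7 motifs, namely E2F (TTTCCCGC, TTTCGCGC, TTTGCCGC or TTTGGCGC), AP-1 (TGACTCA), the E-box (CACGTG), the GC box (GGGCGG), the TATA box (TATAAA), the CCAAT box (CCAAT) and the p53 consensus. None of them matched. In the same stretch of all 32851 RefSeq start windows, 1.81% held an E2F match, 4.26% AP-1, 5.87% an E-box, 32.3% a GC box, 11.8% TATAAA, 32.7% CCAAT and 0.0578% the p53 consensus.

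Of 23 other features with a start coordinate within 1 Mb of that of Cdkn2c, 8 were tested, and 2 fell, 0 rose and 6 did not pass. Over all tested genes, 5.58% fell and 9.65% rose. The median log2 change of the 8 was -0.22 against 0.013 for all tested genes. Faf1, which encodes a Fas-associated factor, has its start coordinate 15.7 kb from that of Cdkn2c. The start coordinate is the lower one whatever the strand. Faf1 was at 14.9 ± 1.88 FPKM for the controls and 9.77 ± 0.711 FPKM for the SLE1.2.3 group (log2 change -0.56 ± 0.10 SE, limma adjusted p = 0.0224). Nrd1, a metallopeptidase gene, fell by 0.33 on the log2 scale (adjusted p = 0.0307). On dropping SLE1.2.3 mice 2 and 3 neither passed, with log2 changes of -0.46 for Faf1 and -0.22 for Nrd1 (adjusted p = 0.142 and 0.202). Btf3l4, Osbpl9, Rnf11 and Kti12 did not pass, with log2 changes of -0.43, -0.62, 0.14 and 0.083. None of the 8 had a change as large as that of Cdkn2c, although these differences between genes were not tested.

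**Figure D3:**
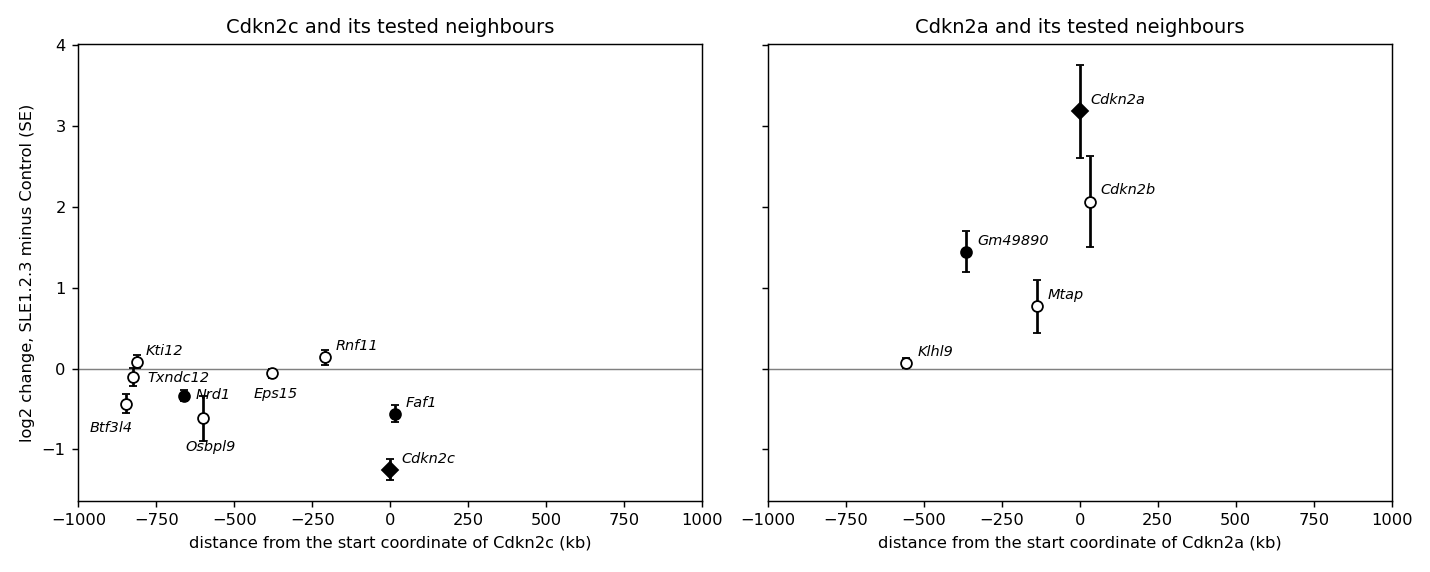
Log2 change (SLE1.2.3 minus control, with SE) against the distance in kb from the start coordinate of Cdkn2c (left) and of Cdkn2a (right), for the gene itself (diamond) and the tested features within 1 Mb (circles), filled where the adjusted p was at most 0.05. The 8 neighbours of Cdkn2c lie between -0.62 and 0.14, and the 4 neighbours of Cdkn2a between 0.071 and 2.07.

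The tested protein-coding genes whose levels over the 6 libraries were most like those of Cdkn2c, by the distance between centred log2(FPKM + 1) values, were the heat shock genes Hsf4 and Hspb6, the nucleosome-binding protein gene Hmgn1, the receptor gene Slamf7 and Hivep3, a zinc finger gene. Their distances were 0.449, 0.451, 0.497, 0.514 and 0.550. Hivep3 lies on chromosome 4 like Cdkn2c, and the others lie on chromosomes 8, 7, 16 and 1. Hmgn1, for example, was at 37.9, 39.1 and 34.2 FPKM for control mice 1, 2 and 3 and at 18.6, 17.6 and 17.6 FPKM for SLE1.2.3 mice 1, 2 and 3.

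Cdkn2a, which encodes both the INK4 inhibitor p16 and, from another first exon, the p53 activator p19Arf, moved the other way (ENSMUSG00000044303.6; chromosome 4, 89274471 to 89294653, minus strand). It was at 0.322, 0.240 and 0.287 FPKM for control mice 1, 2 and 3, from 19, 16 and 10 reads. It was at 3.28, 17.8 and 18.5 FPKM for SLE1.2.3 mice 1, 2 and 3, from 321, 1289 and 1633 reads. Every SLE1.2.3 level was above every control, and library 1 was well below libraries 2 and 3. The exact Poisson 95% intervals, which cover counting error only, reached up to 0.529 FPKM in the controls and down to 2.93 FPKM in SLE1.2.3 library 1. The means were 0.283 ± 0.0411 and 13.2 ± 8.61 FPKM (SD, n = 3 each), a ratio of 46.7, and the log2 change was 3.18 ± 0.58 (SE; limma adjusted p = 0.0211). Only the SLE1.2.3 values lifted Cdkn2a over the filter, and a gene that is tested for that reason had to be higher there. From SLE1.2.3 mouse 1 alone, with the spread of the controls, the log2 change was 1.74 (adjusted p = 0.00393). The call ended without control mouse 1, 2 or 3 (adjusted p = 0.0828, 0.0872 and 0.0830), without SLE1.2.3 mouse 2 (0.0887), without the filter (0.0623) and with voom on recovered reads (0.0848). The γδ chain gene Trdc was at 4.96, 18.9 and 45.2 FPKM and Cd8a at 1.34, 21.4 and 56.4 FPKM for SLE1.2.3 mice 1, 2 and 3, so both were, like Cdkn2a, lowest in library 1. In the controls Trdc was at 0.592 to 0.661 FPKM and Cd8a at 0.218 to 0.508 FPKM. The part of these other cells in the Cdkn2a level was not tested.

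The windows before its start sites are shown because the table gives 1 value for both transcripts, and reads of p16 and p19Arf cannot be told apart in it. Both run 5′ to 3′ on the minus strand (RefSeq, GRCm38.p6), the first over chr4:89294654-89294869 and the second over chr4:89282193-89282442. The outer start is that of p19Arf and the inner start that of p16. Capitals mark the E2F match TTTCCCGC. A match to any of the E2F sequences searched, on either strand, was held by 1.55% of all start windows in the same stretch.
Cdkn2a, outer start: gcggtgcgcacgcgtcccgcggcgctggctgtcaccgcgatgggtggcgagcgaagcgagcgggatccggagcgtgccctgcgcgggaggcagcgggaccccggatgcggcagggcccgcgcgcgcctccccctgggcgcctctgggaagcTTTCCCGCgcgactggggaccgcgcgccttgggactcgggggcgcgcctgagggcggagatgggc
Cdkn2a, inner start: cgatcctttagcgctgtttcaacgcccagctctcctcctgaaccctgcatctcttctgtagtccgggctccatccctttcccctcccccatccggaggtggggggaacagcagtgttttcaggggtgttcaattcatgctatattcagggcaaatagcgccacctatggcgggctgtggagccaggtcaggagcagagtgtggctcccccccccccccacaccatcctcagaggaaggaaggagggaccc
The outer window also held 1 GC box, as did 27.9% of all windows in that stretch, and the inner window held none of the 7 motifs.

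Cdkn2b, the INK4 gene next to Cdkn2a, encodes p15. It was at 0.043, 0.063 and 0.145 FPKM for control mice 1, 2 and 3, from 3, 5 and 6 reads, and at 0.767, 5.12 and 7.62 FPKM for SLE1.2.3 mice 1, 2 and 3. The groups did not overlap, and the lowest SLE1.2.3 level was again in library 1, but the gene did not pass (log2 change 2.07 ± 0.56 SE; adjusted p = 0.0553). Its SLE1.2.3 values alone lifted it over the filter, so its direction was fixed, and without mice 2 and 3 it was under the filter. Of 42 other features that start within 1 Mb of Cdkn2a, 4 were tested, and 1, the long non-coding RNA Gm49890, rose, where 9.65% of all tested genes rose. Its log2 change was 1.44 (limma adjusted p = 0.02002). It too was tested only through its SLE1.2.3 values and was under the filter without mice 2 and 3. The purine salvage gene Mtap, on the other side of Cdkn2a, was at 7.33, 15.8 and 20.2 FPKM for SLE1.2.3 mice 1, 2 and 3 where the controls were at 6.80 to 8.34 FPKM. Mtap did not pass (adjusted p = 0.156), and its log2 change was -0.018 on dropping SLE1.2.3 mice 2 and 3. Of the other CDK inhibitor genes, Cdkn3 was at 5.52 to 6.99 FPKM in the controls and 5.24 to 6.57 FPKM in SLE1.2.3 cells. Cdkn1c, which encodes p57, was under the filter, at 0.891 to 1.06 FPKM in the controls and 1.09, 0.358 and 0.333 FPKM for SLE1.2.3 mice 1, 2 and 3.

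**Figure D4:**
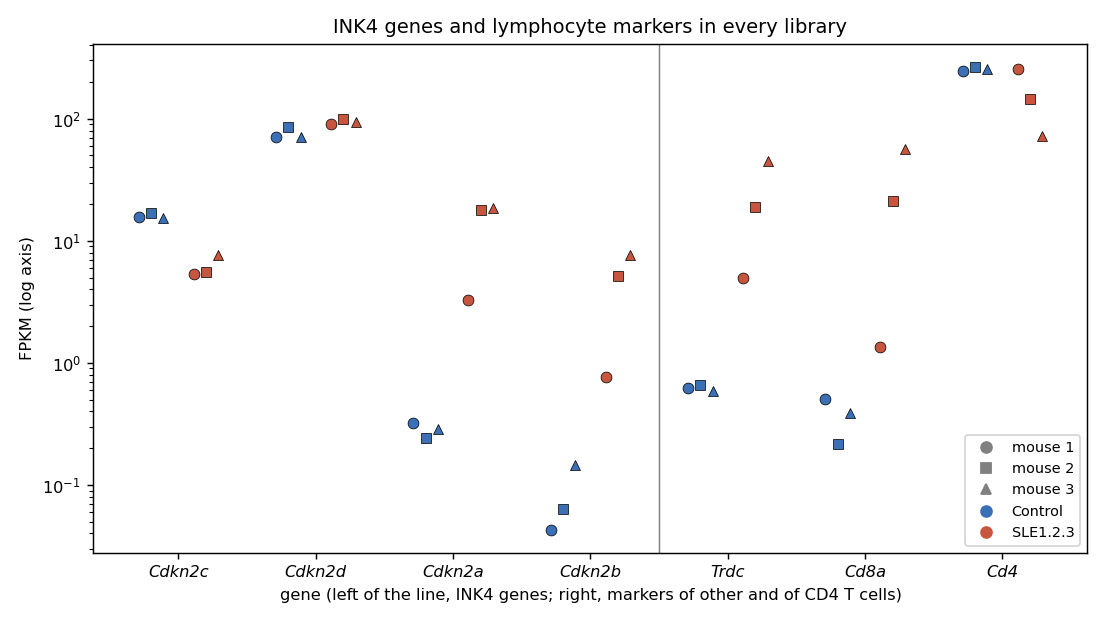
Level in FPKM, on a log axis, of the 4 INK4 genes and of the γδ T cell marker Trdc, the CD8 T cell marker Cd8a and Cd4 in every library, with 1 symbol per mouse. Cdkn2a, Cdkn2b, Trdc and Cd8a are each lowest in library 1 among the SLE1.2.3 libraries, whereas Cdkn2c is at 5.33, 5.50 and 7.59 FPKM in libraries 1, 2 and 3.

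Cdkn2d, which encodes the INK4 inhibitor p19Ink4d, was the most abundant of the INK4 genes (ENSMUSG00000096472.2; chromosome 9, 21288410 to 21291407). It was at 71.0, 84.7 and 70.6 FPKM for control mice 1, 2 and 3 and at 91.2, 100.03 and 93.4 FPKM for SLE1.2.3 mice 1, 2 and 3. The groups did not overlap, but the change of 0.33 ± 0.092 (SE, log2; 95% confidence interval 0.11 to 0.55) did not pass (adjusted p = 0.0588). It passed after quantile normalization (adjusted p = 0.0462), with array weights (0.00116) and without SLE1.2.3 mouse 1 (0.0400). On dropping SLE1.2.3 mice 2 and 3 the log2 change was 0.28 (adjusted p = 0.273).

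Cdkn1a encodes p21, the CIP/KIP inhibitor that p53 induces (ENSMUSG00000023067.14; chromosome 17, 29090976 to 29100727, plus strand). It was at 92.1, 87.2 and 74.5 FPKM for control mice 1, 2 and 3 and at 53.05, 52.4 and 48.6 FPKM for SLE1.2.3 mice 1, 2 and 3. The SLE1.2.3 libraries lay close together, below all the controls. The means were 84.6 ± 9.05 and 51.4 ± 2.40 FPKM (SD, n = 3 each), so that SLE1.2.3 cells held 60.7% of the control level, and the log2 change was -0.70 ± 0.094 (SE; adjusted p = 0.0101). The call ended without control mouse 2 (adjusted p = 0.0569), without SLE1.2.3 mouse 2 (0.0594), on dropping SLE1.2.3 mice 2 and 3 (log2 change -0.66; adjusted p = 0.0524) and when rescaled to a common FPKM sum (log2 change -0.59; adjusted p = 0.0718). The feature 1700023B13Rik overlaps Cdkn1a on the other strand and was at most 2.06 FPKM in any library, and since the strand setting of the counting is not given in the sources used here, reads of both cannot be told apart where they overlap.

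The window before the outer start of Cdkn1a is shown because it holds a match to the p53 consensus, which 0.0639% of all start windows held in the same stretch. Cdkn1a also has an inner start, whose window lies inside annotated exons and is not printed. The sequence runs 5′ to 3′ on the plus strand, chr17:29090729-29090975 (RefSeq, GRCm38.p6). Capitals mark the pair of 10-letter repeats that the search found, here 12 bases apart. The search took only exact matches, with up to 13 bases between the repeats. The letters tgacatgttc, directly after the marked pair, resemble a repeat without matching it exactly. They stay in lower case, and a pair formed with them is not marked. The match is a description of the letters, and binding was not measured.
Cdkn1a, outer start: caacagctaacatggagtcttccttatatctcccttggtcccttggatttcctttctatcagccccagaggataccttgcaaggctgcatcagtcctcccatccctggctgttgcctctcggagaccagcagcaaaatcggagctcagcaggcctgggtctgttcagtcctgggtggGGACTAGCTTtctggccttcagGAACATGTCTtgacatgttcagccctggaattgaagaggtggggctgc

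Of 18 listed p53 genes, Trp53 itself and 17 genes known as its targets or regulators, 17 were tested. Among these 4 fell, 1 rose and 12 did not pass, where 5.58% of all tested genes fell and 9.65% rose, and the median log2 change was -0.21 against 0.013 for all tested genes. Plk2, a kinase gene, was at 7.35, 5.998 and 6.64 FPKM for control mice 1, 2 and 3 and at 0.990, 0.466 and 0.314 FPKM for SLE1.2.3 mice 1, 2 and 3 (adjusted p = 0.00230). Phlda3, which encodes an inhibitor of AKT signalling, had a log2 change of -0.88 ± 0.097 (SE; adjusted p = 0.00707). Zmat3, an RNA-binding protein gene, was at 9.24 ± 1.16 and 5.82 ± 0.149 FPKM for the control and SLE1.2.3 groups (adjusted p = 0.0170). On dropping SLE1.2.3 mice 2 and 3, the median log2 change of the 17 was -0.21. Plk2, Phlda3, Zmat3, Sesn2 and Btg2 were then at log2 changes of -1.94, -0.86, -0.56, -0.39 and 0.67. Sesn2 also fell in the fit of all libraries, by 0.59 on the log2 scale, and Btg2, an antiproliferative gene, rose by 0.45. Mdm2, the ubiquitin ligase of p53, was at 31.0 ± 1.55 and 42.3 ± 8.34 FPKM for the control and SLE1.2.3 groups and did not pass (adjusted p = 0.0952), and Trp53 had a log2 change of -0.00059 (adjusted p = 0.997). Sesn2, Btg2, Mdm2 and Trp53 were chosen after their values were seen.

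Cdkn1b encodes p27, the CIP/KIP inhibitor of resting lymphocytes (ENSMUSG00000003031.14; chromosome 6, 134920401 to 134925513, plus strand). It was at 56.6, 72.4 and 60.9 FPKM for control mice 1, 2 and 3 and at 71.1, 57.4 and 46.9 FPKM for SLE1.2.3 mice 1, 2 and 3. The groups overlapped, with a log2 change of -0.13 ± 0.17 (SE; adjusted p = 0.625). The 95% confidence interval, from -0.53 to 0.28, leaves room for a change in either direction. Of 10 tested genes of p27 turnover and FOXO input, 2 fell, 0 rose and 8 did not pass, where 15.2% of all tested genes passed, with a median log2 change of -0.21. Without SLE1.2.3 mice 2 and 3, 0 of the 10 passed. Foxo3, a transcription factor gene known to induce Cdkn1b, was at 12.3, 13.1 and 13.3 FPKM for control mice 1, 2 and 3 and at 10.4, 9.38 and 8.09 FPKM for SLE1.2.3 mice 1, 2 and 3 (log2 change -0.44 ± 0.095 SE; adjusted p = 0.0317). Cks2, a kinase subunit gene, was at 115 ± 9.03 and 90.6 ± 6.37 FPKM (adjusted p = 0.0480).

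The 5 inhibitor genes together summed to overlapping levels in the groups, 222 to 261 FPKM in the controls and 215 to 233 FPKM in SLE1.2.3 cells. Their make-up differed, and these shares are descriptions with no test. Cdkn1a made up 35.4% ± 3.23 of the summed level in the controls and 22.9% ± 0.657 for the SLE1.2.3 group (SD, n = 3 each). Cdkn2d made up 31.5% ± 1.18 and 42.4% ± 1.44, with no overlap between the groups. Cdkn2c made up 6.63% ± 0.234 and 2.76% ± 0.671. Cdkn2a made up 0.119% ± 0.0241 in the controls and between 1.47% and 8.62% in SLE1.2.3 libraries, which in libraries 2 and 3 put it above Cdkn2c. The CIP/KIP pair summed to 135 to 160 FPKM in the controls and 95.5 to 124 FPKM in SLE1.2.3 cells, whereas the sum of Cdkn2a, Cdkn2c and Cdkn2d ranged from 86.1 to 102 FPKM in the controls and from 99.8 to 123 FPKM in SLE1.2.3 cells.

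**Figure D5:**
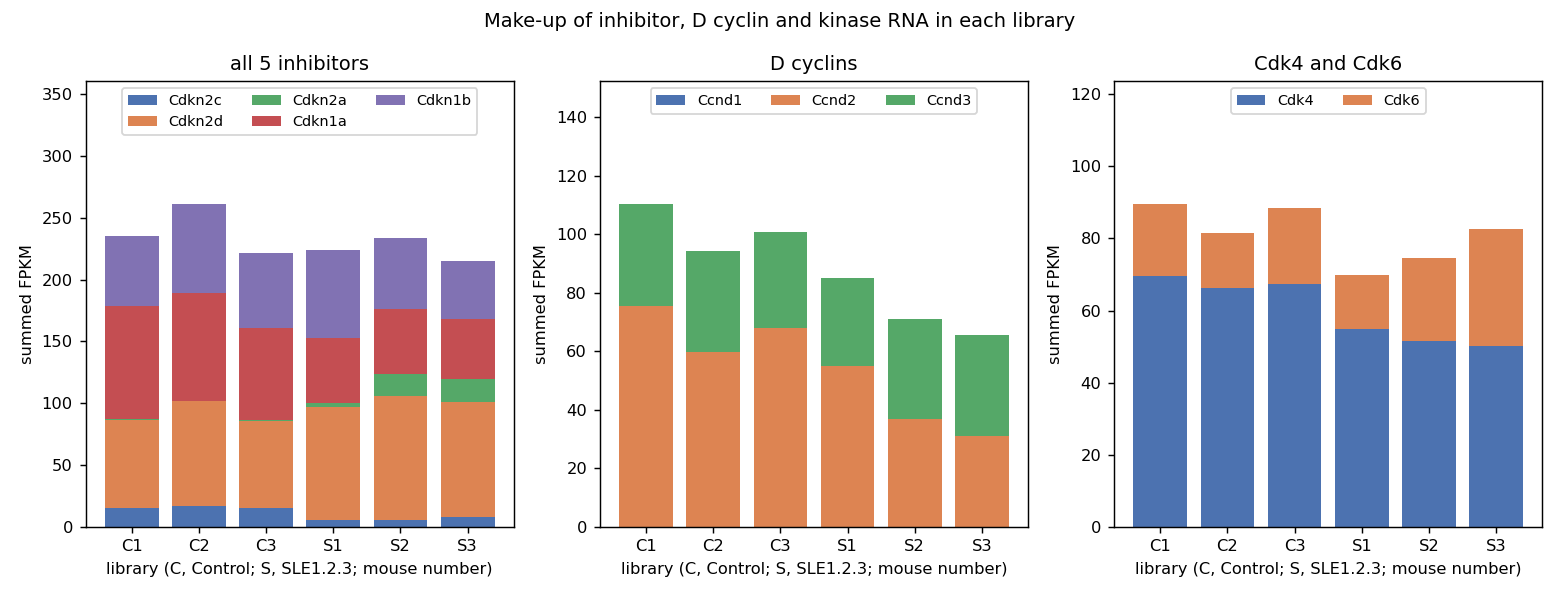
Summed FPKM of the 5 inhibitor genes, the D cyclin genes, and Cdk4 with Cdk6 in each library, stacked by gene; C1 to C3 are the control and S1 to S3 the SLE1.2.3 mice. The inhibitor sums overlap between the groups, while the D cyclin sums are 94.3 to 110 FPKM in the controls and 65.5 to 85.1 FPKM in SLE1.2.3 cells.

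Ccnd2 encodes cyclin D2, the main D cyclin of activated lymphocytes together with D3 (ENSMUSG00000000184.12; chromosome 6, 127125162 to 127152193, minus strand). It was at 75.4, 59.6 and 67.8 FPKM for control mice 1, 2 and 3 and at 54.7, 36.7 and 30.9 FPKM for SLE1.2.3 mice 1, 2 and 3. The groups did not overlap, but SLE1.2.3 library 1 was close to the lowest control. The means were 67.6 ± 7.87 and 40.8 ± 12.4 FPKM (SD, n = 3 each), and the log2 change of -0.75 ± 0.21 (SE; 95% confidence interval -1.26 to -0.24) did not pass (adjusted p = 0.0601). Without SLE1.2.3 mouse 1 it passed, at -0.98 (adjusted p = 0.00239), as it did with array weights (adjusted p = 0.000247). On dropping SLE1.2.3 mice 2 and 3 the log2 change was -0.29 (adjusted p = 0.279). Cd4 was lower in SLE1.2.3 libraries 2 and 3 than in library 1, at 144 and 71.6 against 257 FPKM, and Trdc higher, at 18.9 and 45.2 against 4.96 FPKM, and their part in the Ccnd2 level was not tested. The genes with the pattern most like that of Ccnd2 were Ikzf4, which encodes the transcription factor Eos, Dennd5a and Plekha7, at distances of 0.166, 0.173 and 0.202.

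Ccnd3, which encodes cyclin D3, was at 34.9, 34.5 and 33.03 FPKM for control mice 1, 2 and 3 and at 30.3, 34.3 and 34.6 FPKM for SLE1.2.3 mice 1, 2 and 3 (ENSMUSG00000034165.16; chromosome 17, 47505051 to 47599691, plus strand). The groups overlapped, and the log2 change was -0.049 ± 0.073 (SE; 95% confidence interval -0.22 to 0.13; adjusted p = 0.666), with the sign turning under a common FPKM sum. The genes with the most similar pattern were Exosc9, Thumpd1 and Coq5, at distances of 0.031, 0.032 and 0.033. Ccnd3 overlaps Bysl on the other strand, which was at 9.20 to 13.2 FPKM over the 6 libraries.

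Ccnd1, the gene of cyclin D1, the D cyclin of many non-lymphoid tissues, was nearly silent and under the filter (ENSMUSG00000070348.5; chromosome 7, 144929931 to 144939925, minus strand). It was at 0.063, 0.093 and 0.057 FPKM for control mice 1, 2 and 3, from 15, 25 and 8 reads, and at 0.081, 0.072 and 0.045 FPKM for SLE1.2.3 mice 1, 2 and 3, from 32, 21 and 16 reads. The groups overlapped, and the highest upper bound of the exact Poisson 95% intervals was 0.138 FPKM. LTO1 overlaps it on the other strand, at 2.25 to 3.01 FPKM, so that even these reads cannot be assigned to Ccnd1 with certainty. Among the D cyclins, Ccnd2 made up 66.3% ± 2.65 of the summed level in the controls and 64.3%, 51.7% and 47.1% for SLE1.2.3 mice 1, 2 and 3, with nearly all of the rest from Ccnd3.

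Cdk4 encodes the kinase that D cyclins activate in most cells (ENSMUSG00000006728.12; chromosome 10, 127063534 to 127067920, plus strand). It was at 69.5, 66.2 and 67.3 FPKM for control mice 1, 2 and 3 and at 54.9, 51.7 and 50.1 FPKM for SLE1.2.3 mice 1, 2 and 3. All SLE1.2.3 values lay below all controls, and both groups were tight. The means were 67.6 ± 1.67 and 52.2 ± 2.44 FPKM (SD, n = 3 each), and the log2 change was -0.37 ± 0.063 (SE; adjusted p = 0.0185). Among the fits that left out mice or changed the scaling, the call ended without control mouse 1, 2 or 3 (adjusted p = 0.0772, 0.0723 and 0.0726), without SLE1.2.3 mouse 2 (0.10), on dropping SLE1.2.3 mice 2 and 3 (0.117) and under a common FPKM sum (0.405). Tspan31, which shares 641 bases with annotated Cdk4 transcripts on the other strand, was at 24.4 ± 1.55 and 27.9 ± 0.723 FPKM for the control and SLE1.2.3 groups (adjusted p = 0.103), the opposite direction to that of Cdk4. Tspan31 was chosen after its values were seen.

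The 249 bases before the start of Cdk4 are shown because they hold 4 matches to the E-box CACGTG, the sequence that MYC and its relatives bind. They run 5′ to 3′ on the plus strand, chr10:127063285-127063533 (RefSeq, GRCm38.p6), with the E-boxes in capitals. At least 1 such match was held by 5.997% of all start windows in the same stretch.
Cdk4: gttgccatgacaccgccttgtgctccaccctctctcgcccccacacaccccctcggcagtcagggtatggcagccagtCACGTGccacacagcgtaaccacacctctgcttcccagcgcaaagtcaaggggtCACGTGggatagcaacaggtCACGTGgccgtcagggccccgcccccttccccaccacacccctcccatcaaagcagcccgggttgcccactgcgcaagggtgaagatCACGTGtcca
Of 10 tested genes of D cyclin turnover and MYC input, 2 rose, 0 fell and 8 did not pass, where 15.2% of all tested genes passed, with a median log2 change of 0.12. With only SLE1.2.3 mouse 1 kept, 0 of the 9 still tested passed, and Mycn was under the filter. Mycn, a MYC relative, was at 0.166 to 0.306 FPKM in the controls and at 1.51, 5.62 and 5.58 FPKM for SLE1.2.3 mice 1, 2 and 3 (adjusted p = 0.0239), and only its SLE1.2.3 values lifted it over the filter. Bmi1, a Polycomb gene known to repress Cdkn2a, was at 10.3 ± 0.567 and 14.2 ± 1.92 FPKM (log2 change 0.42 ± 0.10 SE; adjusted p = 0.0435). Myc itself was at 59.2 ± 6.08 and 49.8 ± 2.15 FPKM and did not pass (adjusted p = 0.108); it was chosen after its values were seen.

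Cdk6, which encodes the kinase partner of D cyclins that is prominent in blood cells, varied among the SLE1.2.3 libraries (ENSMUSG00000040274.11; chromosome 5, 3341485 to 3531008, plus strand). It was at 20.2, 15.4 and 21.3 FPKM for control mice 1, 2 and 3 and at 15.0, 22.9 and 32.5 FPKM for SLE1.2.3 mice 1, 2 and 3. SLE1.2.3 library 1 was below every control and library 3 above every control, so the groups overlapped. The log2 change was 0.24 ± 0.27 (SE; 95% confidence interval -0.41 to 0.90; adjusted p = 0.554), and it was -0.30 on dropping SLE1.2.3 mice 2 and 3 (adjusted p = 0.377). Cdk6 made up 18.9% to 24.0% of the summed Cdk4 and Cdk6 level in the controls and 21.5%, 30.7% and 39.3% for SLE1.2.3 mice 1, 2 and 3. Mbnl3, Prkar2a and Nin had the most similar pattern, at distances of 0.244, 0.275 and 0.276.

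The order of the levels differed in places between the groups. In the controls Cdkn1a was highest and overlapped Cdkn2d, followed by Cdk4, Ccnd2 and Cdkn1b, whose ranges overlapped, then Ccnd3, then Cdk6 and Cdkn2c, whose ranges overlapped, and far lower Cdkn2a and Ccnd1. In SLE1.2.3 cells Cdkn2d was highest and apart from Cdkn1b, and from Cdkn1b down to Cdkn2c each gene overlapped the next in the order Cdkn1b, Cdk4, Cdkn1a, Ccnd2, Ccnd3, Cdk6, Cdkn2a and Cdkn2c. Ccnd1 was last in both.

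Downstream of these kinases are the genes that E2F factors switch on for DNA replication. Of 20 tested G1/S genes 5 fell, 0 rose and 15 did not pass, where 5.58% of all tested genes fell, with a median log2 change of -0.27 against 0.013 for all tested genes, and 19 of the 20 had a negative change. From SLE1.2.3 mouse 1 alone, the median log2 change of the 20 was -0.38 against 0.012 for all genes tested in that fit. Cdt1, Mcm7 and Gins2 were at -0.48, -0.51 and -0.30 there. Cdt1, which loads the replicative helicase, was at 34.7, 32.3 and 31.6 FPKM for control mice 1, 2 and 3 and at 23.3, 18.3 and 20.2 FPKM for SLE1.2.3 mice 1, 2 and 3 (log2 change -0.65 ± 0.097 SE; adjusted p = 0.0134). The helicase gene Mcm7 and the replication factor gene Gins2 had log2 changes of -0.46 and -0.38 in the fit of all libraries. Cdt1, Mcm7 and Gins2 were below all controls in each SLE1.2.3 library, but other G1/S genes were not. Mcm5 was at 52.5, 57.4 and 71.3 FPKM for SLE1.2.3 mice 1, 2 and 3, against 69.7 to 75.1 FPKM in the controls. Rrm2 was at 80.3, 120 and 164 FPKM for these mice, against 99.5 to 103 FPKM in the controls. Mcm5 and Rrm2 were chosen after their values were seen. Among the pocket protein genes and their partners 0 of 8 passed. Rbl2, which encodes the retinoblastoma relative p130 of resting cells, was at 13.4, 15.2 and 14.2 FPKM for control mice 1, 2 and 3 and at 18.2, 31.4 and 39.9 FPKM for SLE1.2.3 mice 1, 2 and 3, and did not pass (adjusted p = 0.0584), nor did it on dropping SLE1.2.3 mice 2 and 3 (log2 change 0.33; adjusted p = 0.125). Among the E2F genes 0 of 10 passed, with a median log2 change of -0.20 and E2f1 at 17.7 ± 0.852 and 14.3 ± 1.40 FPKM (limma adjusted p = 0.0625). On dropping SLE1.2.3 mice 2 and 3, the median log2 change of the E2F genes was -0.18. In the cyclin E, cyclin A and Cdk2 module 0 of 8 passed, with Ccna2 at 57.1 ± 5.96 and 43.3 ± 5.87 FPKM (adjusted p = 0.0708). In the mitotic cyclin and Cdk1 module 0 of 8 passed, with Cdc25c, a phosphatase gene, at a log2 change of -0.29 (adjusted p = 0.0660).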

How the data were processed

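Per the labels' protocols, a SMARTER mRNA kit was used on polyadenylated RNA of the 6 Th17 cultures (3 control and 3 SLE1.2.3 mice). STAR 2.7.3a, featureCounts 2.0.0, cutadapt 2.10, FastQC 0.11.9 and DESeq2 1.24.0 appear in the submitters' processing notes beside build mm10, without their roles. The authors deposited FPKM values per feature, per the file headers; neither the annotation nor whether counting used strand is given in the sources used here. Depth was recovered from the steps of low FPKM values, of which 100.0% were whole reads within 0.15.

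Values were transformed to log2(FPKM + 1), on which changes of low genes come out too small, and fitted over all 11378 features with a mean of at least 1 FPKM using limma 3.58.1 (R 4.3.3; mean-variance trend, genotype as the only term), with Benjamini-Hochberg adjustment and a threshold of 0.05. The p-values rest on the spread among these 6 mice. The fit was tested on simulated reads that had the same relative spread in both groups. That test does not cover genes that varied more among the SLE1.2.3 libraries, such as Cdkn2a. The 10 genes and all lists were chosen with earlier results of these data known. Named were all 10 genes, from each list up to 3 genes that passed, by smallest adjusted p (1 gene where none passed), up to 6 neighbours of Cdkn2c within 1 Mb, and the genes of most similar pattern. Other neighbours, overlapping genes and values said to be chosen after their values were seen fall outside this rule. Near-identical transcripts were sought with blastn 2.17.0, at 90% identity over 200 bases. The 19 alternatives changed the pseudocount (0.1), the filter (none, or 5 FPKM), the scaling, the variance model, the block or the libraries used.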

Additional observations from a re-analysis of the deposited data

How the results depend on the processing

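The fall of Cdkn2c kept its direction and its call in all 19 alternatives, with log2 changes from -1.41 to -1.15. The count of genes past the threshold, 1733, moved further. It was 798 without a filter, 1129 with a filter at 5 FPKM, 6952 with array weights, 659 on dropping SLE1.2.3 mice 2 and 3, and between 206 and 3705 when 1 mouse was left out; the filters test another number of genes, and the cause of the other changes was not tested. The array weight estimate stopped before full convergence. With the mouse number as a replicate block, 940 genes passed, and of the 9 tested genes described here only Cdk4 lost its call (adjusted p = 0.0518). Same-numbered mice did not deviate together, with correlations of -0.0040, 0.10 and 0.091 for mice 1, 2 and 3, and control mouse 2 correlated best with SLE1.2.3 mouse 1, so the numbers were not taken as pairs.

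Of the 9 tested genes, signs turned only for 3 that passed in no alternative. Cdkn1b ranged from -0.27 to 0.022 (log2) when 1 mouse was left out, with the positive value without SLE1.2.3 mouse 3, and was at 0.17 on dropping SLE1.2.3 mice 2 and 3. Ccnd3 was at 0.065 under a common FPKM sum and 0.0030 with array weights, and ranged from -0.082 to 0.012 when 1 mouse was left out, positive without SLE1.2.3 mouse 1. Cdk6 ranged from -0.015, without SLE1.2.3 mouse 3, to 0.52, and was at -0.30 on dropping SLE1.2.3 mice 2 and 3. For other named genes and the lists, dropping SLE1.2.3 mice 2 and 3 was added after seeing the data, and Mtap turned to -0.018. Calls of Cdkn1a and Cdk4 held when ribosomal, small and mitochondrial RNA was left out of the scaling, where 1 of the 9 rose and 3 fell. Depth limits Cdkn2a in the controls and Ccnd1 in every library, each at 32 reads or fewer.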
